A study of Mus musculus with 12 samples.

Results

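The contractile genes of smooth muscle were followed in tissue labelled distal ileum, taken from BALB/c mice that received phosphate-buffered saline (PBS) or Porphyromonas gingivalis, a bacterium of the mouth known for its part in gum disease. The 10 genes were chosen by symbol (Actg2, Acta2, Des, Hspb6, Myh11, Cnn1, Tagln, Smtn, Lmod1 and Synpo2) from the 45808 genes in the table, and all 10 were among the 15025 genes that were tested because their normalized counts averaged 10 or more. The choice was made with earlier results of these data known. The design has 6 PBS libraries and 6 P. gingivalis libraries of polyadenylated RNA, all of 1 strain and 1 tissue label; no dose, route, duration or mouse age was given in the labels used. It is also not stated that each library came from a different mouse, so p-values measure the spread between these samples, which may be technical. Libraries are named by group and the number in their title.

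Smooth muscle cells form the 2 layers of the muscularis externa, the thin muscularis mucosae and the walls of vessels. Force comes from myosin filaments built on the heavy chain Myh11 pulling on thin filaments of the actins Actg2 and Acta2, which are anchored at dense bodies and held in a desmin network. Calponin and transgelin decorate the thin filament, and the factor SRF with its partner myocardin drives these genes through CArG boxes, short A/T-rich elements in their promoters. In whole ileal tissue, fewer muscle cells and less RNA per muscle cell cannot be told apart.

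All 10 genes had lower means of log2(normalized count + 1) after P. gingivalis. Turned back into folds, these differences ran from 1.23-fold (Synpo2) to 1.59-fold (Actg2). Mean normalized counts in PBS and P. gingivalis were 891 and 774 for Synpo2, and 1636 and 1092 for Actg2. None of the 10 passed the test over all genes (limma, Benjamini-Hochberg adjusted p = 0.992 for each). No other gene passed either, so the background share called was 0% of 15025 genes (560 had an unadjusted limma p under 0.05; edgeR called 0 and DESeq2 28). P. gingivalis replicate 6 held the highest value of 9 of the 10 genes, while for each gene 2 to 4 of the other 5 P. gingivalis libraries were under every PBS library. Without that library the 10 genes were 1.41-fold to 1.84-fold lower on the same scale, and again none passed (limma adjusted p from 0.0578 to 0.496).

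Several libraries stood apart before any comparison of the groups. Fabp6, the bile acid binding protein that marks ileal epithelium, was at most 16.002 normalized counts in PBS replicate 6 and P. gingivalis replicates 1 and 5, and at least 11246 in the other 9 libraries, although all are labelled distal ileum. The 18S ribosomal RNA gene Rn18s-rs5 took 4.597% of values in P. gingivalis replicate 4 and 0.629% in replicate 2. Recovered depth ran from 6553306 to 10378841 reads. All 10 genes were detected in all 12 libraries, with 15 to 44 reads for Hspb6 and at least 126 for each of the others. The skeletal muscle myosin Myh4 had 0 reads throughout, which allows up to 3 reads per library and covers counting error only.

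On GRCm38 (GENCODE M21) all 10 are protein coding genes, scattered over 8 chromosomes. Actg2 lies on chromosome 6 from 83512905 to 83536265, Acta2 on chromosome 19 from 34241090 to 34255590 and Myh11 on chromosome 16 from 14194535 to 14291372. Cnn1 and Tagln share chromosome 9, from 22099216 to 22109630 and from 45929619 to 45936058. Des and Lmod1 share chromosome 1, from 75360329 to 75368579 and from 135324807 to 135368065. Hspb6 lies on chromosome 7 from 30552178 to 30555443, Smtn on chromosome 11 from 3517523 to 3540612 and Synpo2 on chromosome 3 from 123076519 to 123236149. Values cover whole genes. Whether the counting used strand is unstated, and 6 of the 10 gene bodies overlap another annotated gene (Des with the antisense Gm15179, Tagln with Pcsk7, Hspb6 with Proser3 and Lin37, and Smtn, Lmod1 and Synpo2 with small or non-coding models), so their reads may include some from the neighbour. Actg2 and Acta2 encode near-identical proteins, and how any reads shared by related genes were assigned is likewise not given.

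The bases upstream of the start sites of these genes were searched for the elements known for this gene class. Whether such elements bear on how the genes moved together across libraries was not tested. RefSeq promoters (GRCm38.p6) were found for 7 of the 10 genes, in 8 windows of 250 bases before the start, with 2 windows for Hspb6; Actg2, Myh11 and Tagln had no entry. A CArG box (CC, a core of 6 A or T, then GG) was found in 0 of the 8 windows and in 1.47% of all 32851 windows. Allowing 1 C or G in its core, on both strands, 2 of 8 windows held a match, against 8.59% of all windows. MCAT, the element CATTCC or its complement GGAATG bound by TEAD factors, was found in 3 of 8 windows, against 12.6%. No match says only that these letters are absent from the window. The matches are shown with up to 10 bases on each side, in the 5′ to 3′ direction of the gene, with the match in capitals.
Acta2, CArG-like, chr19:34255438-34255467, minus strand: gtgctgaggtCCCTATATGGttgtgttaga
Acta2, CArG-like, chr19:34255388-34255417, minus strand: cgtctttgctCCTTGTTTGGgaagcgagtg
Acta2, MCAT, chr19:34255504-34255529, minus strand: gcagaacagaGGAATGcagtggaaga
Hspb6, CArG-like, chr7:30553051-30553073, plus strand: acaCCTATAAGGGtctgcctcct
Lmod1, MCAT, chr1:135324673-135324698, plus strand: aagattccctGGAATGtcctcaagtt
Smtn, MCAT, chr11:3539499-3539524, minus strand: gtttgtggcaCATTCCggactttggc
The 2 Acta2 matches with 1 C or G in the core begin 84 and 34 bases before the RefSeq start, in a window of which 217 bases are also annotated as UTR in GENCODE. Of the 7 genes with a window, Acta2 was the only one with both kinds of element.

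Of the thin filament actins, Actg2, the actin of visceral smooth muscle, stood at 1247, 1609.6 and 2092 normalized counts (lowest, median and highest) in PBS and at 682, 864 and 2099.8 after P. gingivalis. The 4 lowest libraries were P. gingivalis replicates 1, 2, 3 and 5, all below every PBS library, replicate 4 stood just above the lowest PBS library at 1258, and replicate 6 was the highest of the 12. The log2 difference, P. gingivalis minus PBS on log2(normalized count + 1), was -0.67 (SE 0.24, unadjusted p = 0.0165 in limma over 6 and 6 libraries), and -0.88 (SE 0.17) without P. gingivalis replicate 6, where its limma adjusted p was 0.0578. Acta2, the actin of vessel walls and myofibroblasts as well as gut muscle, stood at 2321, 3199.5 and 4683 in PBS and at 1649, 1949 and 5061 after P. gingivalis. The same 4 libraries again lay below every PBS library. Its difference was -0.51 (SE 0.26) with all libraries and -0.74 (SE 0.18) without replicate 6.

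The Actg2 to Acta2 ratio asks whether both actins differed alike. On the log2 scale it was -1.03 ± 0.19 in PBS and -1.19 ± 0.12 after P. gingivalis (SD, n = 6 each), a difference of -0.16 that did not pass an exact two-sided permutation test (p = 0.119, where the smallest p the design allows is 0.00216). P. gingivalis replicate 6, the highest library for both actins, had a ratio of -1.27, inside the PBS range of -1.31 to -0.84. Without PBS replicate 3, the PBS library with the lowest ratio, the difference was -0.21 (exact permutation p = 0.0390). That was the smallest exact permutation p with each of the 12 libraries left out in turn, and the largest was 0.232.

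Myh11, the smooth muscle myosin heavy chain, stood at 8348 to 8886 in 5 PBS libraries and at 5242 in PBS replicate 6. After P. gingivalis its lowest, median and highest values were 3332, 5599 and 13547. The P. gingivalis libraries thus spread over 4.07-fold, on both sides of the PBS range. Its difference was -0.40 (SE 0.28). Without P. gingivalis replicate 6 it was -0.63 (SE 0.21), and without replicate 2, the lowest library, it was -0.23 (SE 0.26). On the recovered reads edgeR gave -0.26 and DESeq2 -0.27. PBS replicate 6 is 1 of the 3 libraries low in Fabp6, and without those 3 the Myh11 difference was -0.40 (SE 0.32).

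Of the proteins that bind or build the thin filament, Tagln, which encodes transgelin, stood at 1314, 1842 and 2164 in PBS and at 806, 1082 and 2672 after P. gingivalis. Its difference was -0.53 (SE 0.24), and -0.76 (SE 0.15, limma adjusted p = 0.0599) without P. gingivalis replicate 6. In 4 P. gingivalis libraries Tagln was below every PBS library. Cnn1, calponin, which damps the myosin ATPase, stood at 635, 976 and 1402 in PBS and at 396, 615 and 1471 after P. gingivalis, with 3 libraries below the PBS range, and differed by -0.58 (SE 0.27). Lmod1, leiomodin, which nucleates actin filaments, stood at 212, 289 and 312 in PBS and at 144.0, 197 and 443 after P. gingivalis. Its difference of -0.34 (SE 0.25) was -0.16 (SE 0.24) without the 3 libraries low in Fabp6, the smallest value of any of these genes in that comparison. It was -0.21 without P. gingivalis replicate 5, -0.54 without replicate 6, -0.20 in edgeR and -0.21 in DESeq2.

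Des, the intermediate filament desmin, had 4 P. gingivalis libraries below its PBS range of 1319 to 2149.9. Those 4 ran from 756 to 1240.2, and replicates 4 and 6 stood at 1423 and 2346. Its difference was -0.52 (SE 0.22), and -0.86 (SE 0.18) without P. gingivalis replicate 6 and the 3 libraries low in Fabp6. Smtn, the cytoskeletal protein smoothelin, stood at 401, 473 and 507 in PBS and at 247, 332 and 623 after P. gingivalis, and differed by -0.35 (SE 0.18), with 4 P. gingivalis libraries below its PBS range. Synpo2, an actin-bundling protein, showed the smallest difference with all 12 libraries, -0.30 (SE 0.24), with 708, 902 and 1154 in PBS and 406, 745 and 1401 after P. gingivalis. Only 2 P. gingivalis libraries, replicates 2 and 3, were below its PBS range. Its difference was -0.14 (SE 0.22) without replicate 2, -0.19 (SE 0.25) without replicate 3 and -0.49 (SE 0.19) without replicate 6. It was -0.16 (SE 0.24) without the 2 libraries high in 18S RNA, -0.19 in edgeR and -0.20 in DESeq2.

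Hspb6, a small heat shock protein phosphorylated during relaxation of smooth muscle, had another profile than the other 9 genes. It stood at 23.7, 33.0 and 44.6 in PBS and at 17.1, 22.5 and 30.3 after P. gingivalis. Its value in P. gingivalis replicate 6 was 26.1, the eighth highest of the 12, whereas each of the other 9 genes peaked there, at 1.96 to 2.96 times the median of the other 5 P. gingivalis libraries. Its difference of -0.54 (SE 0.20) was -0.59 (SE 0.21) without that library. With 15 to 44 reads per library Hspb6 carries the largest counting error of the 10.

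**Figure D1:**
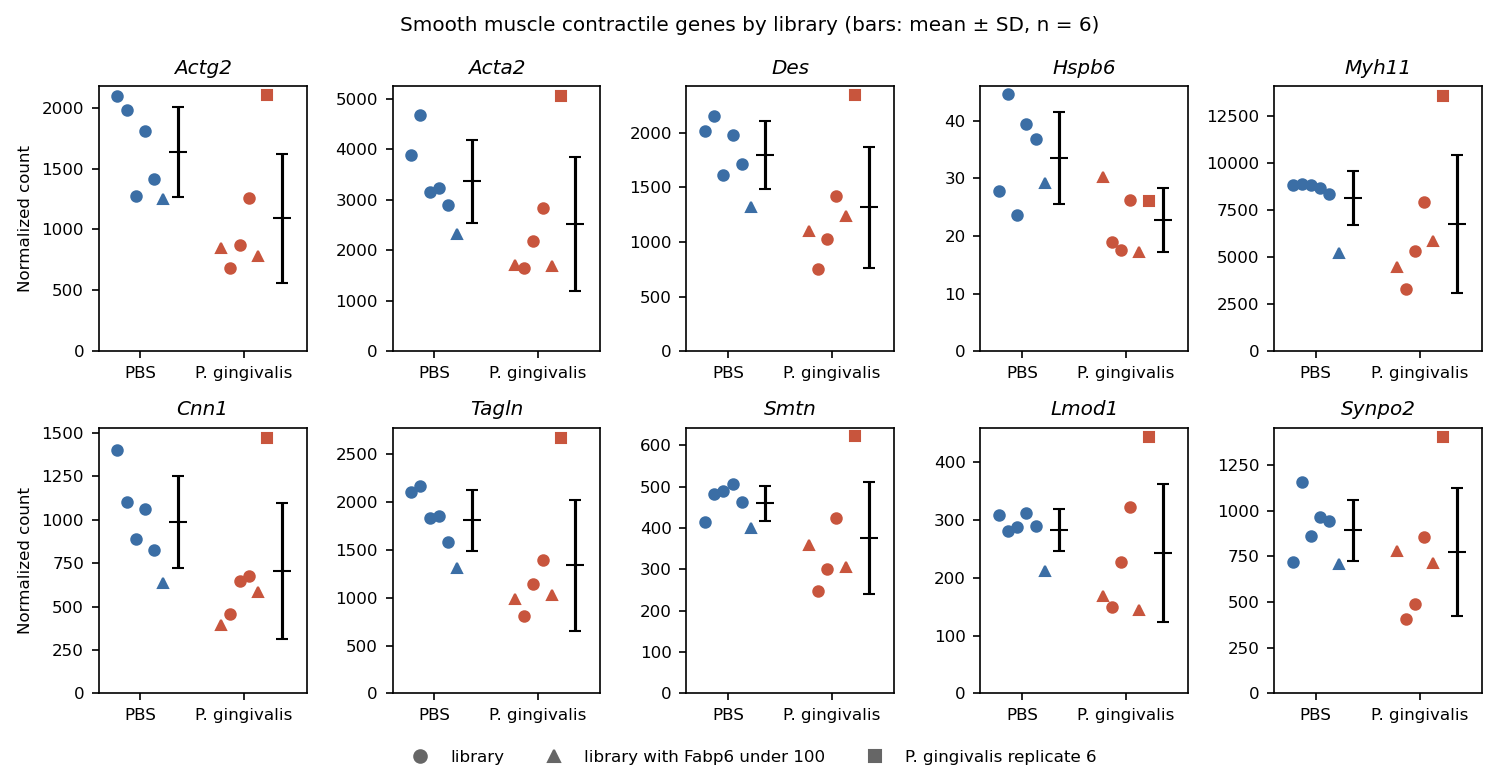
Normalized counts of the 10 genes in each of the 6 PBS (blue) and 6 P. gingivalis (red) libraries, with the mean ± SD beside each group; triangles mark the 3 libraries low in Fabp6 and the square marks P. gingivalis replicate 6. The square is the highest point for every gene but Hspb6, where it lies at 26.1.

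Counts over the 10 genes describe the same pattern. With all 12 libraries 10 of 10 differences were negative, against 51.1% of all tested genes, with a median of -0.52 against 0.00 for all genes. An unadjusted limma p under 0.05 with a lower mean was reached by 4 of 10 (Actg2, Hspb6, Des and Tagln), against 2.16% of all tested genes. At least 4 of the 6 P. gingivalis libraries were under every PBS library in 5 of 10 genes, against 4.41% of all. All 6 were under every PBS library in 0 of 10, against 0.0732% of all. P. gingivalis replicate 6 was the highest library for 9 of 10 genes and for 18.3% of all, and P. gingivalis replicate 2 the lowest for 7 of 10 and for 13% of all. The genes share each library and vary together, so these counts are not 10 independent observations. The 10 genes were also chosen with earlier results of these data known. The shares of all genes beside them therefore describe the list and do not test it.

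Leaving libraries out moved the size of the difference but not its sign. Each library was left out in turn, and P. gingivalis replicate 6 is singled out because it held the highest value of 9 of the 10 genes. Leaving it out lowers the treated mean of those genes by construction, so the values without it are a description and no separate support. Without P. gingivalis replicate 6 the median was -0.67 with 10 of 10 negative (49% of all genes), and all 10 had an unadjusted p under 0.05 with a lower mean, against 5.23% of all genes; limma then called 0.347% of all genes lower, none of the 10. In no gene were the 5 remaining P. gingivalis libraries all below PBS, a separation met by 0.774% of all genes. Without the 3 libraries low in Fabp6 the median was -0.44 with 10 of 10 negative (51.9% of all genes); limma called 0.00667% of all genes and none of the 10, and 1 of 10 (Hspb6) had an unadjusted p under 0.05 against 1.83% of all. Leaving out both, which was chosen after the values were seen and keeps 5 PBS and 3 P. gingivalis libraries, gave a median of -0.74 with 10 of 10 negative (47% of all genes) and an unadjusted p under 0.05 for all 10 (5.89% of all, lower). All 3 P. gingivalis libraries were then below every PBS library for 6 of 10 genes (Actg2, Acta2, Des, Myh11, Cnn1 and Tagln), against 3.45% of all genes, and none of the 10 passed (limma adjusted p from 0.0986 to 0.637), where 0.0603% of all genes were called and 0.0536% were called lower. Those 3 treated libraries include both that were high in 18S RNA. Without the 2 libraries high in 18S RNA, and with all the others, the median was -0.41 with 10 of 10 negative (51.3% of all genes), and 2 of 10 had an unadjusted p under 0.05 (3.05% of all, lower). Without P. gingivalis replicate 2 alone the median was -0.40 with 10 of 10 negative (51.2%), and 2 of 10 had an unadjusted p under 0.05 (3.55% of all, lower). Among the 3 libraries low in Fabp6 themselves, the PBS library exceeded both P. gingivalis libraries for 7 of 10 genes, against 33% of all tested genes; with 1 PBS library they allow no test.

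**Figure D2:**
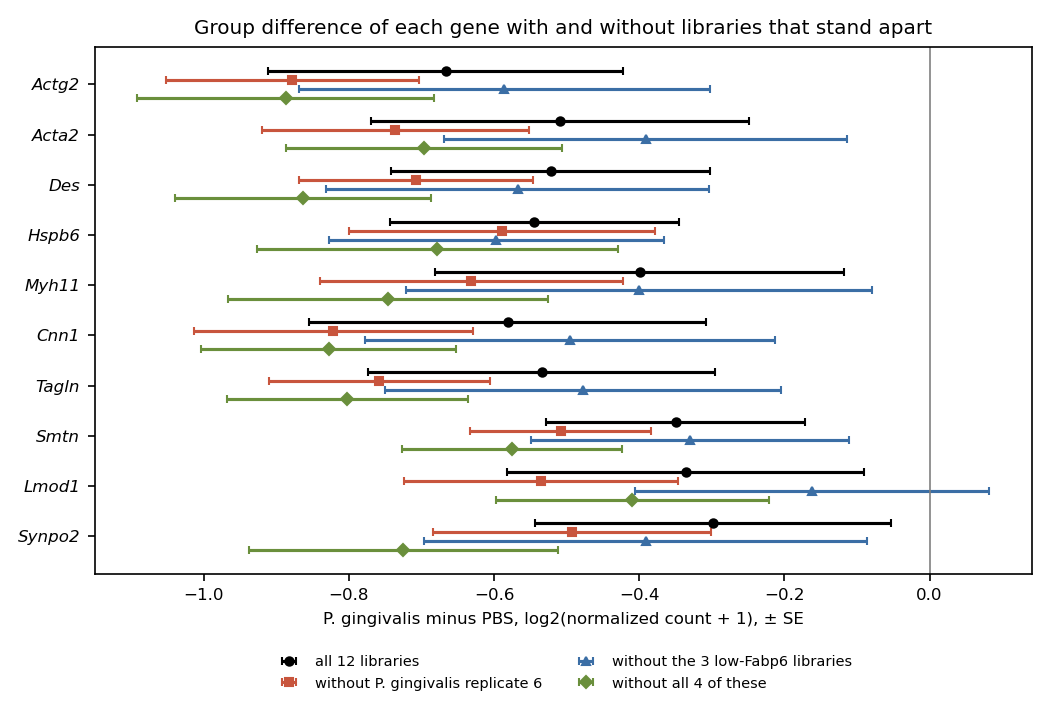
Difference of each gene, P. gingivalis minus PBS on log2(normalized count + 1) with its SE, for all 12 libraries and for 3 smaller sets. Every point lies below 0; leaving out P. gingivalis replicate 6 moves the median from -0.52 to -0.67.

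Across libraries 9 of the genes followed 1 profile and Hspb6 followed it less closely. A single axis held 86.6% of the variance of all 10 over the 12 libraries and 84.7% without P. gingivalis replicate 6. As a description over 12 libraries that share their depth and tissue makeup, Spearman's rho between pairs of the 9 genes other than Hspb6 had a median of 0.87 (36 pairs, 0.69 to 0.99; Pearson's r 0.66 to 0.98). Hspb6 paired with each of them at 0.28 to 0.58 (Pearson's r 0.42 to 0.69). The mean log2 value of the 10 genes was 9.86 ± 0.23 in PBS and 9.39 ± 0.54 after P. gingivalis (SD, n = 6), so the treated libraries spread more widely, and 9.20 ± 0.31 without replicate 6. It was lowest in P. gingivalis replicate 2, at 8.80, and highest in replicate 6, at 10.35. The 10 genes together took 0.0953% of all normalized counts in replicate 2 and 0.459% in replicate 6, with PBS libraries between 0.151% and 0.294%.

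**Figure D3:**
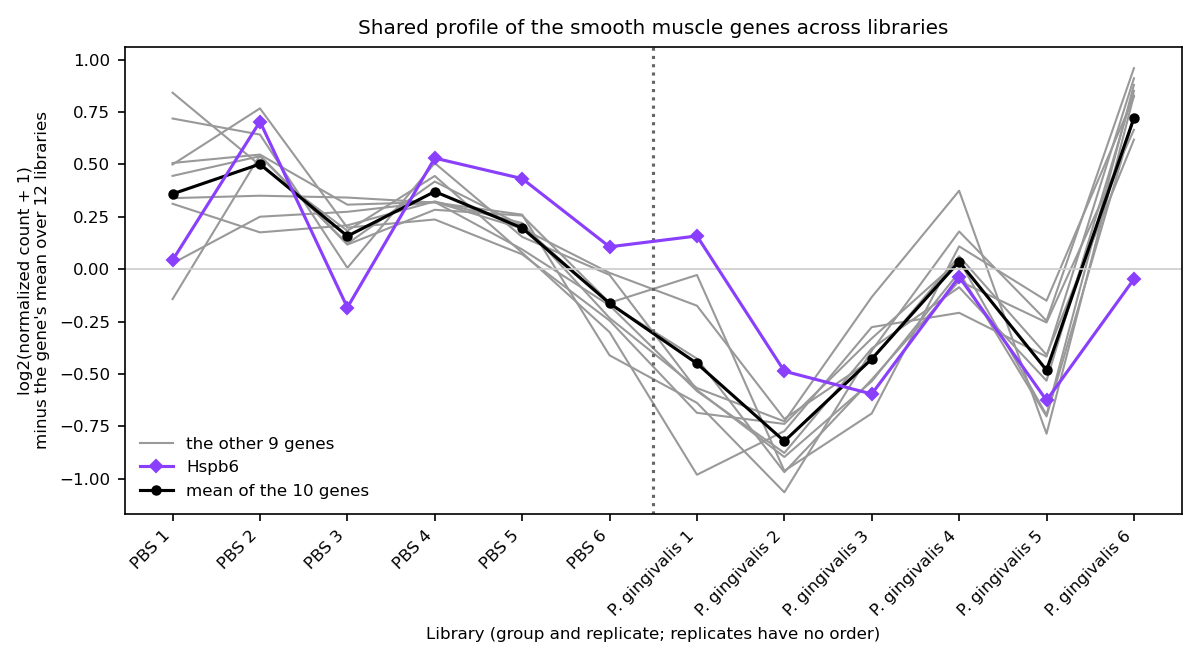
log2(normalized count + 1) of each gene minus its own mean over the 12 libraries (y axis), by library (x axis); grey lines are 9 genes, purple is Hspb6 and black the mean of the 10. The grey lines are highest in P. gingivalis replicate 6 and low in replicate 2, while Hspb6 is near its mean in replicate 6.

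Set per kilobase of annotated exon, which allows levels to be compared between genes, Acta2 led in PBS at 1532 ± 375 normalized counts per kilobase (SD, n = 6). Myh11 (1071 ± 188), Actg2 (1051 ± 238) and Tagln (909.5 ± 161) followed and did not differ from one another beyond their spread. Des (479 ± 82.1) and Cnn1 (361 ± 96.9) formed a middle pair with overlapping ranges. Smtn (104.9 ± 9.87) was higher than Lmod1 (71.4 ± 9.25) and Synpo2 (68.1 ± 12.9), which overlapped. Hspb6 was lowest, at 14.6 ± 3.46. After P. gingivalis the order of the first 4 was Acta2 (1149 ± 602), Myh11 (887 ± 482), Actg2 (701 ± 341) and Tagln (673 ± 343), within each other's spread. Exon lengths are from GENCODE M21 and sum the exons of all transcripts, so a gene with many unused exons is set too low.

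The genes whose values followed the mean of the 10 most closely were Tpm2, Gnai1, Arsk, Flrt2, Ldhb and Lims2, with Spearman's rho of 0.97 to 0.98 and Pearson's r of 0.87 to 0.98 over the 12 libraries. Tpm2, a tropomyosin of the thin filament, had means of 2224 ± 513 in the PBS group and 1577 ± 865 in the treated group, and stood at 3228 in P. gingivalis replicate 6. Ldhb, a lactate dehydrogenase subunit, averaged 116.6 ± 18.8 and 85.1 ± 40.7, and Flrt2, a membrane guidance protein, 70.4 ± 15.8 and 52.5 ± 22.5. Arsk, a sulfatase, averaged 94.5 ± 14.8 and 76.9 ± 10.2, with replicate 6 at 95.7, inside its PBS range. None passed the test (limma adjusted p = 0.992 for each). In all, 118 of 15015 other genes (0.786%) reached a rho of 0.9.

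Other parts of the contraction apparatus were described by lists. In these lists and those of cell types, lower and higher refer to the mean of log2(normalized count + 1). A small negative difference could occur with a higher mean normalized count. Of 20 genes of the thin filament, dense bodies and cytoskeleton, 17 had lower means (median -0.27), 0 passed, and the smallest p belonged to Mustn1, a small muscle protein (-0.81, SE 0.25), Csrp1, an actin crosslinking protein (-0.46, SE 0.20), and Tpm2 (-0.61, SE 0.27). Of 16 tested integrin, dystrophin complex and caveola genes 13 had lower means (median -0.19). Cav1, the caveola coat protein caveolin, stood at 686 to 1266 in PBS and 429 to 1123 after P. gingivalis, a difference of -0.68 (SE 0.22). Ptrf, the caveolar protein cavin, differed by -0.59 (SE 0.21). It passed without P. gingivalis replicate 6 (-0.78, limma adjusted p = 0.0483), the 1 gene of these machinery lists to do so. Limma then called 0.347% of all tested genes lower. Itga7, a laminin-binding integrin of muscle, differed by -0.54 (SE 0.27).

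In each list of signalling genes of contraction 0 passed with all libraries. Of 15 genes around the myosin light chain, 11 had lower means (median -0.13). Myl9, the smooth muscle regulatory light chain, averaged 2542 ± 509 and 1877 ± 886 (-0.52, SE 0.24), Myl6, an essential light chain, differed by -0.23 (SE 0.14), and Rock2, the kinase that inhibits the light chain phosphatase, by 0.23 (SE 0.11). Of 15 tested calcium and channel genes 10 had lower means (median -0.15), with Pln, the calcium pump inhibitor phospholamban, at -0.53 (SE 0.35), Ryr2, a calcium release channel, at -0.35 (SE 0.29), and Orai1 at -0.13 (SE 0.10). Of 15 tested receptor and relaxation genes 11 had lower means (median -0.14). Htr2b, a serotonin receptor, averaged 17.5 ± 4.61 and 9.66 ± 3.05 (-0.82, SE 0.24, limma adjusted p = 0.745). Tacr1, a tachykinin receptor, went the other way (0.58, SE 0.20, limma adjusted p = 0.992). It stood at 16.4 to 25.9 in PBS and 26.1 to 58.0 after P. gingivalis, ranges that nearly touched. The share of all genes placed in this way was not counted. Chrm3, the muscarinic receptor that triggers contraction, differed by -0.22 (SE 0.14).

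Of 15 tested transcription regulators of smooth muscle, 4 had lower means and 11 higher (median 0.08), and 0 passed. Srf averaged 363 ± 35.7 and 317 ± 80.6 (-0.23, SE 0.15), with its highest value, 425, again in P. gingivalis replicate 6. Myocd, the smooth muscle coactivator myocardin, averaged 64.9 ± 13.4 and 72.6 ± 30.6 (0.08, SE 0.24), Mkl2, a myocardin relative, differed by 0.13 (SE 0.10) and Mef2d by 0.26 (SE 0.15). Whether the lists differ from one another was not tested.

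**Figure D4:**
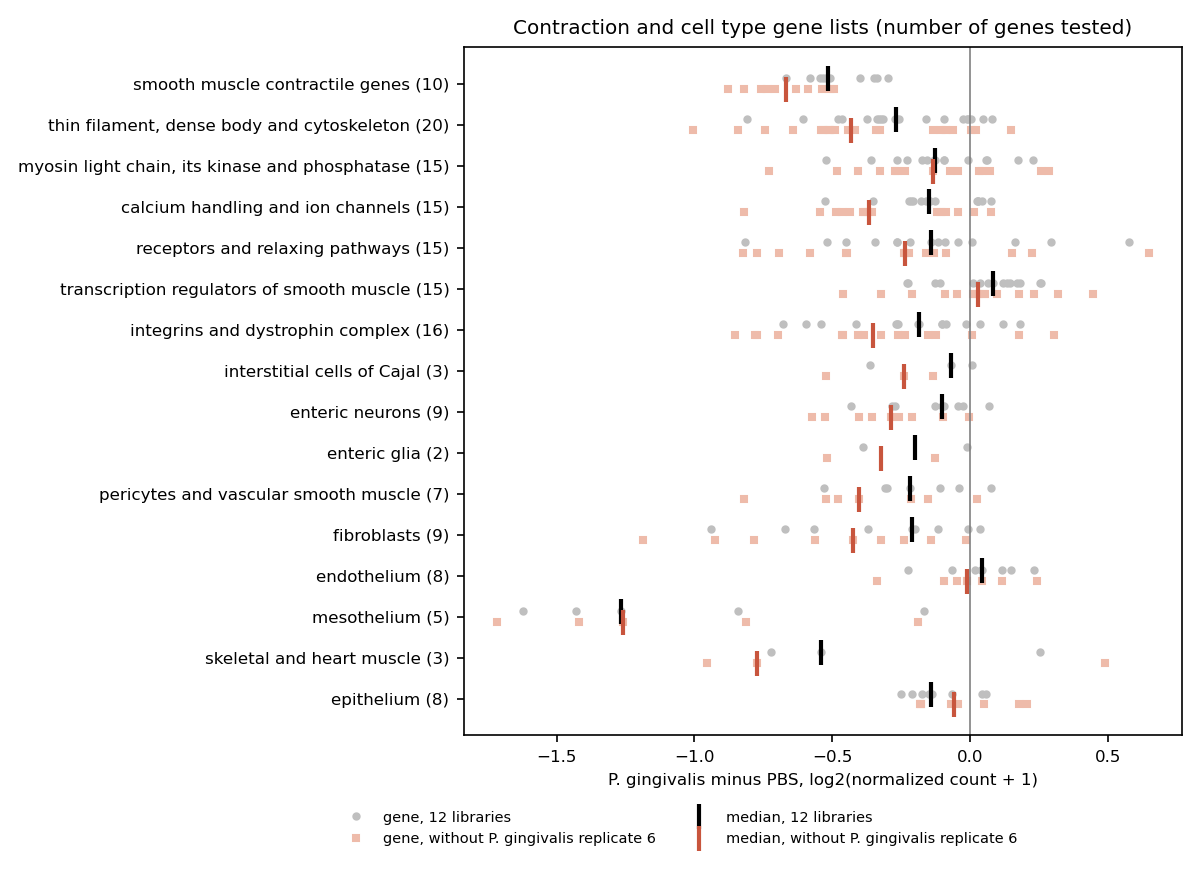
Differences of single genes (points) and list medians (bars), P. gingivalis minus PBS on log2(normalized count + 1), for the contraction and cell type lists with all 12 libraries (grey, black) and without P. gingivalis replicate 6 (pink, red). The contractile genes lie wholly below 0; the fat cell list, with a median of -4.38, is off the scale and not drawn.

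Markers of several other cell types were high and low in the same libraries as the smooth muscle genes. The 9 pericyte and vascular muscle markers summed to 3062 to 4373 normalized counts in PBS, 1997 to 3630 in 5 P. gingivalis libraries and 6192 in replicate 6; 6 of 7 tested members had lower means, with Rgs5 at -0.22 (SE 0.22) and Notch3 at -0.04 (SE 0.28). The 10 fibroblast markers summed to 9299 to 12874 in PBS, 7660.0 to 10716 in 5 P. gingivalis libraries and 15576 in replicate 6, with 8 of 9 tested members lower, among them Dpt at -0.57 (SE 0.28) and Pdgfra at -0.01 (SE 0.16). Enteric neuron markers (8 of 9 tested members lower) summed to 548 to 705 in PBS, 414 to 688 in 5 P. gingivalis libraries and 825 in replicate 6. In that list Elavl4 differed by -0.04 (SE 0.29) and Snap25 by -0.10 (SE 0.20). The 3 markers of interstitial cells of Cajal, the pacemakers of gut muscle, summed to 446 to 684, 409 to 593 and 895 in the same order, with Ano1 at -0.36 (SE 0.20) and Kit at 0.01 (SE 0.17). Glial markers, of which 2 of 6 were tested and both were lower, summed to 39.9 to 80.7, 28.9 to 67.4 and 93.1, with Sox10 averaging 5.77 normalized counts in the PBS group and 5.06 in the treated group. P. gingivalis replicate 6 was thus highest, and replicate 2 lowest, for each of these 5 marker sums, as for the contractile genes.

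Epithelial markers ran the other way in those 2 libraries. The 8 markers summed to 83911 to 97908 in PBS, to 121543 in P. gingivalis replicate 2 and to 63781 in replicate 6, while P. gingivalis replicate 1 was lowest at 63100.3. Epcam differed by -0.21 (SE 0.20) and Krt8 by -0.18 (SE 0.24), and 6 of 8 had lower means (median -0.14). Of 8 endothelial markers 2 had lower means (median 0.04), with Pecam1 at 0.12 (SE 0.19) and Cdh5 at -0.07 (SE 0.22), and their sum was 931 to 1519 in PBS and 908 (replicate 2) to 1729 (replicate 1) after P. gingivalis. The part of tissue makeup in the smooth muscle result was not tested.

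Mesothelium and fat lie on the outer face of the gut. Of the mesothelial list 5 of 8 markers were tested and all 5 had lower means (median -1.27). Upk3b stood at 30.9 to 120.0 in PBS and 11.3 to 28.7 after P. gingivalis, with replicate 6 at 28.7. Every P. gingivalis library was thus below every PBS library, as for 0.0732% of all tested genes. Lrrn4 differed by -1.43 (SE 0.30). The sum of this list is 98.6% Krt19, which epithelium also expresses: it was 8812 to 12067 in the PBS libraries and 6437 to 13353 in the treated ones. The 7 fat cell markers were all lower (median -4.38) and summed to 1549 to 6833 in PBS, 448 to 1100.0 in 5 P. gingivalis libraries and 2299 in replicate 6. Adipoq and Plin1 were at 0 in 3 P. gingivalis libraries, replicates 1, 2 and 3, and their differences were -5.60 (SE 1.31) and -4.89 (SE 1.11). Of 10 skeletal and heart muscle genes 3 were tested and 2 were lower. Their sum was 124 to 189 in PBS and 75.0 to 213 after P. gingivalis, highest again in replicate 6, with the creatine kinase Ckm at -0.72 (SE 0.30) and the skeletal actin Acta1 near the limit, at 4.97 ± 1.74 and 3.54 ± 2.47. None of the markers in these lists passed with all 12 libraries (limma adjusted p of 0.215 or more). Without P. gingivalis replicate 6, 6 of the 7 fat cell markers passed, among them Adipoq (-6.61, SE 1.05, limma adjusted p = 0.0151). So did the mesothelial Upk3b (-1.72, SE 0.33, limma adjusted p = 0.0473). With that library left out, limma called 0.347% of all 14981 tested genes lower.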

How the data were processed

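The deposited table holds normalized counts, a signal that the authors made by dividing gene counts by 1 size factor per sample, per the file name and the values. HISAT2, DESeq2, Cufflinks and FastQC and the builds GRCm38 and mm10 are named, per the submitters' processing notes; roles, versions, strand setting and annotation were not stated there. Values were whole multiples of 1 step per library, and dividing by it gave whole reads for 100% of values within 0.001 reads.

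Groups were taken from the treatment label. Genes with a mean of at least 10 were compared on log2(normalized count + 1) with limma 3.58.1 in R 4.3.3 (mean-variance trend, two-sided, Benjamini-Hochberg over 15025 genes at 0.05), with steps tested on simulated data. The pseudocount of 1 understates changes of low genes. edgeR 4.0.16 and DESeq2 1.42.0 were run on the recovered reads as alternatives. Named genes were the 10 members, the 3 smallest p of each machinery list, the first 2 genes of each cell type list and the 6 closest profiles; Myh4 and Krt19 were named after their values were seen, and 1 gene that the rule names is not reported here. The members and lists were chosen with earlier results of these data known.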

Additional observations from a re-analysis of the deposited data

Results flagged for a closer look

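Of 56 sets of 6 values tested, 9 had 1 library set well away from the rest; about 1 in 20 would by chance, and the sets share libraries. P. gingivalis replicate 6 gave 4 of the 9: Acta2 at 5061 normalized counts where the rest of its group spanned 1649 to 2833, Cnn1 at 1471 against 396 to 677, Tagln at 2672 against 806 to 1395, and the fat cell marker sum at 2299 against 448 to 1100.0. PBS replicate 6, low in Fabp6, gave another 4, all at the bottom of its group. These were Myh11 at 5242 against 8348 to 8886, Lmod1 at 212 against 281 to 312, the receptor and relaxation gene sum at 3734 against 4771 to 5054, and the pericyte and vascular muscle marker sum at 3062 against 4026 to 4373. The endothelial marker sum was 931 in PBS replicate 2 against 1302 to 1519.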

How the results depend on the processing

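All 249 differences of the 10 genes under 25 alternatives were negative and 0 passed the threshold; Hspb6 has no value with a minimum mean of 50. The number of members called was 0 throughout. The median difference ran from -0.67 to -0.40 over 12 libraries left out in turn and from -0.74 to -0.41 under 13 other alternatives. The number of genes called over all genes, 0 with all libraries by limma (560 at an unadjusted p under 0.05), was 1 with a pseudocount of 5, 20 with sample weights, 28 with DESeq2, 0 with edgeR, 1 without the libraries low in Fabp6, 9 without these and P. gingivalis replicate 6, and 0 to 53 with 1 library left out (53 without P. gingivalis replicate 6, 7 without PBS replicate 5); the cause was not tested.

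Equal numbers in the titles did not pair the libraries: same-numbered libraries correlated at -0.54 to 0.08 in their deviations from the group means. With the replicate number as a block 0 genes were called, and the Actg2 to Acta2 ratio differed by -0.16 (exact sign-flip permutation p = 0.0312, the smallest that 6 pairs allow). With 1 library left out that difference ran from -0.21 to -0.12. Depth limits Hspb6 most, at 15 to 44 reads per library.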
